A study of Mus musculus with 8 samples.

Results

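Gene expression was compared between the heart section labelled TAC-2w and the heart section labelled sham. They are 2 of the 4 spatial transcriptome sections of the series, which also holds 4 single-cell libraries. The sections were chosen because they carry the same batch label, batch 1, whereas the TAC-4w and TAC-6w sections carry others. Both came from wild type male C57BL/6J mice that were 8 weeks old at operation. Transverse aortic constriction (TAC) narrows the aortic arch with a ligature, so that the left ventricle pumps against a raised pressure, and the section labelled TAC-2w is given as 2 weeks after it. A sham operation is the surgery without the ligature, and the sham label gives no time after surgery. Each condition had 1 section, and the number of animals behind a section is not given with the labels.

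A section was laid on an array of capture spots (Visium), each of which collects polyadenylated RNA from the cells above it, and each captured molecule was counted once by its unique molecular identifier (UMI). The section labelled sham had 1676 spots and 25996378 UMIs, and the section labelled TAC-2w had 2063 spots and 48754396 UMIs. Median depth was 15488 and 24523 UMIs per spot, and 36.5% and 6.88% of spots had fewer than 10000 UMIs. Mitochondrial transcripts took 51.5% of UMIs in the sham-labelled section and 43.4% in the TAC-2w-labelled section. The level of a gene is therefore given as counts per 1000000 UMIs (CPM) of a total without mitochondrial transcripts and without 3 features that resemble ribosomal RNA (AY036118, Gm26917, Gm42418). This total was 12531634 UMIs in the sham-labelled and 27467360 UMIs in the TAC-2w-labelled section. Of 32285 listed genes, 10229 had at least 100 UMIs in either section and were compared.

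The labels of the sections are in doubt, and this bears on every direction given here. A map of UMIs per spot in the published study shows the same sections under other names. Compared by eye, by tissue outline and by the place of the shallow spots, its panel named sham has the shape of the section labelled TAC-2w, and its panel named TAC-6w has the shape of the section labelled sham. The panels named TAC-2w and TAC-4w have the shapes of the sections labelled TAC-4w and TAC-6w. Which naming is right was not decided. The sections are called by their deposited labels throughout, "higher" and "lower" compare one labelled section with the other, and no difference is given as an effect of TAC.

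The ventricular wall is made mainly of cardiomyocytes by volume, which burn fatty acids in densely packed mitochondria, with endothelial cells, fibroblasts, pericytes, smooth muscle cells and macrophages between them. Under pressure overload cardiomyocytes are known to turn on a fetal and stretch-responsive programme (natriuretic peptides, beta-myosin heavy chain, ankyrin repeat proteins), to shift from fatty acids towards glucose, and fibroblasts are known to lay down matrix. Both sections had the defining markers of ventricular muscle. The 6 ventricular markers (Myh6, Myl2, Myl3, Tnnt2, Tnni3 and Ryr2) summed to 70094 CPM in the sham-labelled and 62451 CPM in the TAC-2w-labelled section. The 5 atrial markers summed to 26.7 and 23.9 CPM, of which Stard10 alone took 23.5 and 20.1 CPM.

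**Figure D1:**
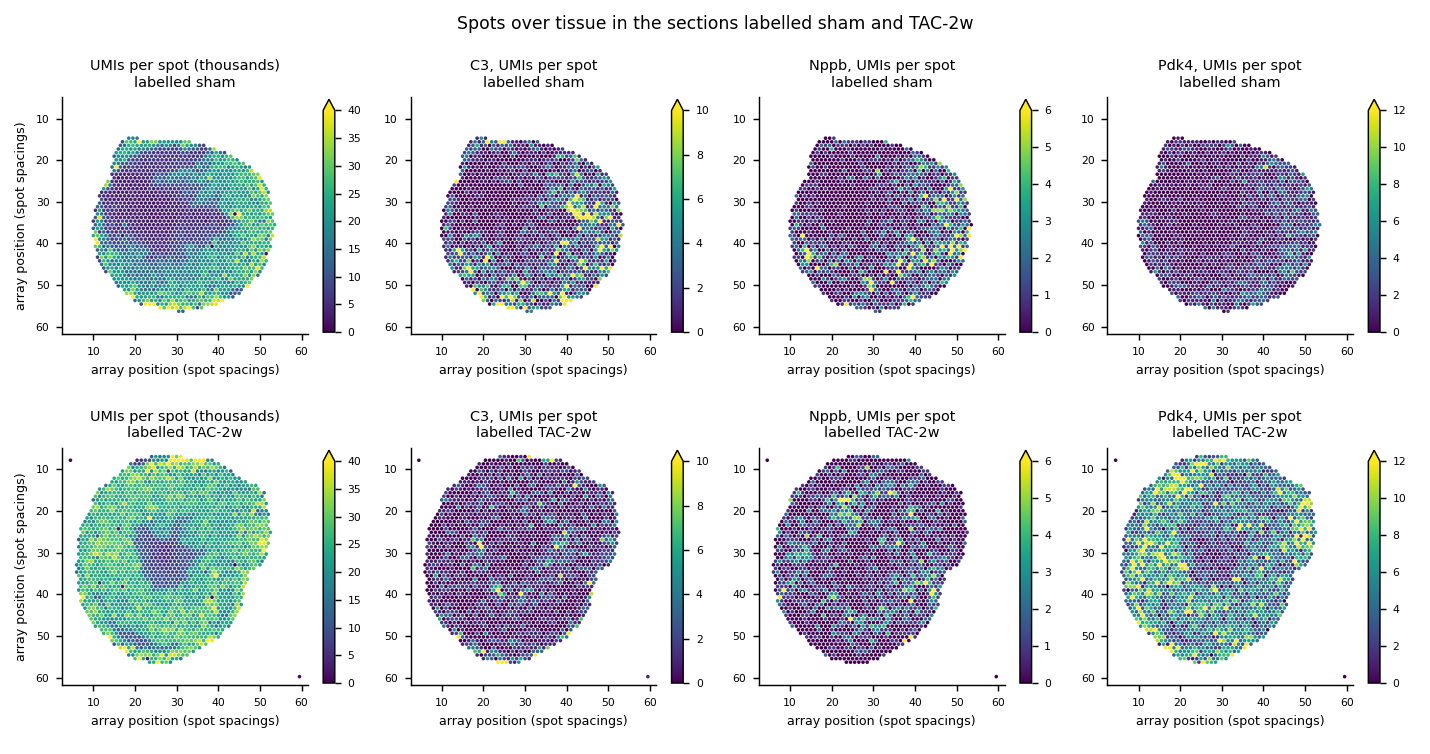
Spots over tissue drawn at their array position (both axes in spot spacings), with the section labelled sham above and the section labelled TAC-2w below, coloured by UMIs per spot and by the UMIs per spot of C3, Nppb and Pdk4. The shallow spots fill much of the upper left of the sham-labelled section (median 5607 UMIs in its upper left quadrant, against 25188 in that of the TAC-2w-labelled section), while C3 and Pdk4 differ over the deep parts of both.

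Few genes were much higher in the section labelled TAC-2w and more were lower. Of the 10229 genes, 120 (1.17%) had a ratio of TAC-2w-labelled to sham-labelled level of at least 1.5, and 814 (7.96%) had a ratio of at most 0.667, the inverse of 1.5. With 1 section per condition no test between conditions was possible, so a gene is called only by this fold, and intervals are exact conditional binomial 95% intervals that cover counting error only. The median ratio over all genes was 0.889, or -0.17 on the log2 scale, so that a typical gene sat below 1. After division by this median 333 genes were past the fold upwards and 301 downwards. With all features kept in the total the median was 1.04, with 467 genes higher and 218 lower. All 120 higher genes stayed past the fold under both scalings, and of the 814 lower genes 301 and 218 did, while none of the 814 was above 1 in either. At the edge of the fold, Mpped2 was just inside at 1.501 and Uqcrb just outside at 1.4999 on the upper side, and Asb10 was just inside at 0.6666 and Ankrd12 just outside at 0.6668 on the lower side.

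Because the sections differ in depth, each ratio was taken again in spots of 20000 to 30000 UMIs, 488 in the sham-labelled and 1309 in the TAC-2w-labelled section. There 179 genes (1.75%) were past the fold upwards and 1092 (10.7%) downwards. Of the 120 higher genes 95 were past the fold in these spots and all 120 were above 1, and of the 814 lower genes 675 were past the fold and all 814 were below 1. These spots are part of the sections compared and not a second measurement. Each section was also cut into 4 quadrants around its centre. The 4 levels of the TAC-2w-labelled section were all above the 4 levels of the sham-labelled section for 92 of the 120 higher genes, against 7.84% of all genes, and all below for 598 of the 814 lower genes, against 24.5% of all genes. Both sets of genes were picked by ratios of the same UMIs, so larger shares than among all genes follow from that choice. Quadrants of a section are not replicates, so the split shows only that most of the differences were spread over the tissue.

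**Figure D2:**
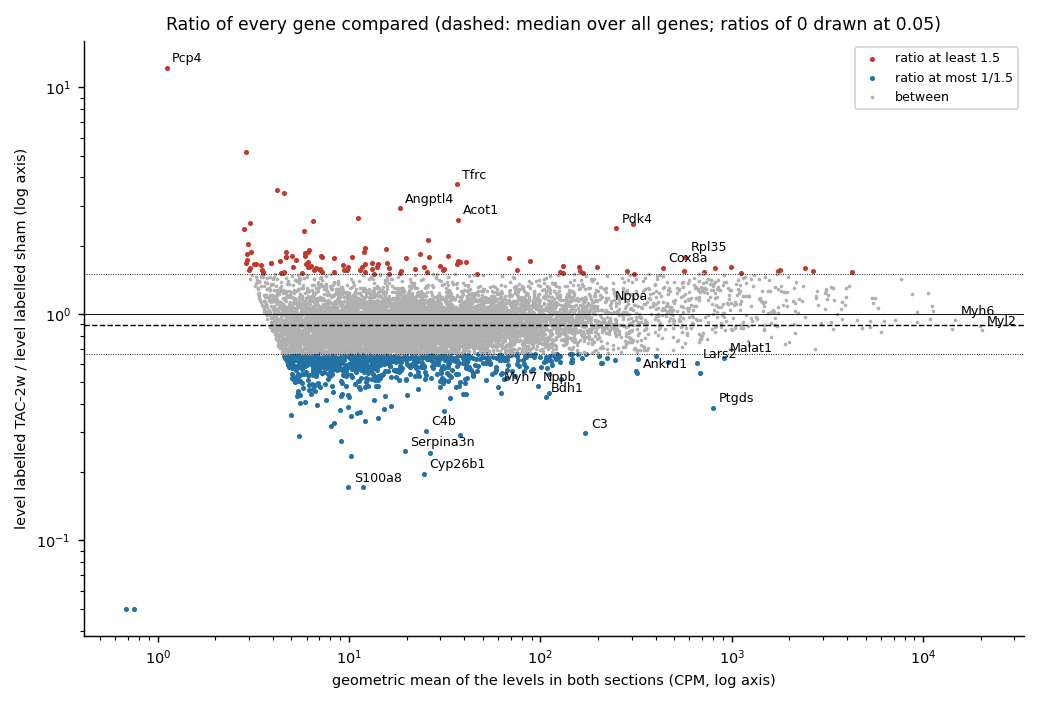
Each point is 1 of the 10229 genes, with the geometric mean of its levels in both sections on the x axis (CPM, log axis) and the ratio of the TAC-2w-labelled to the sham-labelled level on the y axis (log axis). Red points have a ratio of at least 1.5 and blue points of at most 0.667, the dotted lines mark these folds, the dashed line marks the median of 0.889, and genes without a UMI in the TAC-2w-labelled section are drawn at 0.05.

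Genes that mark fatty acid use were among the higher genes. Pdk4, a kinase that shuts pyruvate out of the mitochondrial oxidation path (ENSMUSG00000019577, GRCm38 chromosome 6, 5483351 to 5496278), was at 161 CPM in the sham-labelled and 386 CPM in the TAC-2w-labelled section, a ratio of 2.39 (2.28 to 2.51). It had a UMI in 83.2% of the sham-labelled and 98.7% of the TAC-2w-labelled spots of 20000 to 30000 UMIs, and its quadrants spanned 133 to 178 CPM and 350 to 433 CPM, so they did not overlap. Angptl4, a secreted inhibitor of lipoprotein lipase, was at 10.8 and 31.6 CPM, a ratio of 2.93 (2.44 to 3.54). The acyl-CoA thioesterase Acot1 was at 22.9 and 59.6 CPM, a ratio of 2.60 (2.29 to 2.96), although it is nearly identical to its neighbours of the same family and reads could be shared among them. Ucp3, a mitochondrial carrier of muscle, was at 17.2 and 31.7 CPM, a ratio of 1.84 (1.58 to 2.14).

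These were the 4 of 49 compared genes of fatty acid uptake and oxidation that were past the fold upwards, against 1.17% of all genes. None was past it downwards, and the list had a median ratio of 1.11, against 0.889 over all genes. Other members differed less. The beta-oxidation enzymes lay on both sides of 1, Acadm being at 1088 and 1302 CPM, Hadha at 1320 and 1229 CPM, and Cpt1b, which loads fatty acids for entry into mitochondria, at 516 and 467 CPM. The fatty acid binding protein Fabp3 was at 6399 and 9143 CPM, a ratio of 1.43. Of 36 genes of glycolysis, glycogen and pyruvate entry, 1 was past the fold downwards, against 7.96% of all genes. It was the phosphorylase kinase subunit Phkg1 at 22.8 and 12.9 CPM, and the median of the list was 0.914. Bdh1, the mitochondrial enzyme that uses the ketone body beta-hydroxybutyrate, lay the other way, at 163 CPM in the sham-labelled and 69.9 CPM in the TAC-2w-labelled section (ratio 0.428, 0.402 to 0.456).

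Most ribosomal protein genes were higher, by less than the fold. Of 83 cytosolic ribosomal protein genes compared, 8 were past the fold upwards, against 1.17% of all genes, and none downwards. Their median ratio was 1.32 (1.33 at matched depth). In 78 the quadrants did not overlap, with the TAC-2w-labelled section above, against 7.84% of all genes. Rpl35 was at 425 and 760 CPM (ratio 1.79, 1.73 to 1.84), Rps2 at 783 and 1261 CPM (1.61, 1.57 to 1.65) and Rpl39 at 647 and 1029 CPM (1.59, 1.55 to 1.63). Many of these genes have near-identical pseudogene copies, which can take reads from them. In the other sections the group was also above the sham-labelled one: its summed level was 54863 CPM in the section labelled sham, 73154 in TAC-2w, 78705 in TAC-4w and 64578 in TAC-6w, and 81 of the 83 genes were lowest in the section labelled sham. Of all genes compared, 13.7% were lowest there.

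Nuclear-encoded subunits of the respiratory chain had a median ratio of 1.19. Of 84 compared, 4 were past the fold upwards, against 1.17% of all genes, and none downwards. Cox8a, a subunit of cytochrome c oxidase, was at 346 and 552 CPM (ratio 1.60, 1.54 to 1.65), Atp5md of the ATP synthase at 1913 and 3039 CPM (1.59), the electron carrier Cycs at 1409 and 2174 CPM (1.54) and Cox7c at 3440 and 5265 CPM (1.53). The mitochondrially encoded transcripts were left out of the total. Set against all UMIs they were lower in the section labelled TAC-2w except mt-Atp8 (895.5 and 901.5 CPM), mt-Co1 being at 127637 CPM of all UMIs in the sham-labelled and 110584 CPM in the TAC-2w-labelled section, and mt-Nd3, with the lowest ratio of them (0.662), at 19533 and 12936 CPM. Other abundant higher genes were Ost4 of the oligosaccharyltransferase (ratio 1.62), the mitochondrial ribosomal protein Mrpl34 (1.61), the RNA polymerase subunit Polr2l (1.61) and Ppp1r14c, an inhibitor of protein phosphatase (1.70).

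Among the less abundant higher genes, the transferrin receptor Tfrc, which brings iron into cells, rested on many UMIs. It had 238 UMIs in the sham-labelled and 1947 in the TAC-2w-labelled section, 19.0 and 70.9 CPM, a ratio of 3.73 (3.26 to 4.29). Its level was 12.0 CPM in the section labelled TAC-4w and 50.3 CPM in TAC-6w. In spots of 20000 to 30000 UMIs, 19.7% of sham-labelled and 58.4% of TAC-2w-labelled spots had a Tfrc UMI. Red cell markers also differed at this depth: the 5 markers summed to 1.12 times the sham-labelled level over all spots and 1.55 times in these spots, with Hbb-bs at 9520 and 11722 CPM over all spots. The part of red cells in the Tfrc difference was not tested.

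The highest ratio belonged to Pcp4, a calmodulin-binding peptide, which had 4 UMIs in the sham-labelled and 107 in the TAC-2w-labelled section, a ratio of 12.2 whose interval runs from 4.63 to 45.6. The potassium channel subunit Kcne1 was at 6.86 and 18.1 CPM (ratio 2.64), the skeletal-type calsequestrin Casq1 at 2.47 and 8.41 CPM (3.40), and Dbh, the enzyme that makes noradrenaline, at 2.23 and 7.86 CPM (3.52). Irx5, a transcription factor whose level differs across the thickness of the ventricular wall, was at 4.07 and 10.5 CPM, a ratio of 2.57 (1.90 to 3.53), with quadrants of 2.90 to 4.82 and 5.20 to 13.6 CPM. The epithelial adaptor Eps8l1 (ratio 2.51) and Tmem171 (2.36) complete the 12 highest named ratios with Igha, which is described with the other antibody genes. These genes rest on few UMIs, and their intervals are wide. Each gene in this paragraph, Igha included, had fewer UMIs in the sham-labelled section than the limit for being compared. Irx5, for example, had 51 UMIs there and 287 in the TAC-2w-labelled section. They were compared only because of their UMIs in the TAC-2w-labelled section, which is the deeper one. Their ranks and the Irx5 quadrants rest on those same UMIs and may owe part of their size to the limit.

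Stress and stretch genes of cardiomyocytes, which overload is known to raise, were mostly not higher in the section labelled TAC-2w. Of the 19 compared, 1 was past the fold upwards and 4 downwards, against 1.17% and 7.96% of all genes. The median was 0.848, near the 0.889 over all genes, and 0.991 with all features in the total. The list of 20 genes summed to 7173 CPM in the sham-labelled and 7269 CPM in the TAC-2w-labelled section. The summed level was therefore not lower, but it rests mainly on abundant members, such as Fhl2 at 1229 and 1792 CPM. Of the 19 members compared, 13 had a ratio below 1 and 6 above. At matched depth 6 members were past the fold downwards and none upwards, against 10.7% and 1.75% of all genes. The genes below are the members past the fold over all spots. Brain natriuretic peptide, Nppb (ENSMUSG00000029019, chromosome 4, 147985786 to 147987205), was at 140 CPM in the sham-labelled and 66.8 CPM in the TAC-2w-labelled section, a ratio of 0.479 (0.448 to 0.511). Its quadrants overlapped (77.8 to 170 and 57.3 to 83.3 CPM), while those of Myh7, Ankrd1 and Mybpc2 did not. Beta-myosin heavy chain, Myh7, was at 86.9 and 41.5 CPM (0.477, 0.439 to 0.519). The cardiac ankyrin repeat protein Ankrd1 was at 433 and 238 CPM (0.548, 0.529 to 0.569), and the myosin-binding protein Mybpc2 at 12.9 and 8.16 CPM (0.631). The skeletal actin Acta1 was at 228 and 353 CPM (1.55, and 1.49 at matched depth).

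Atrial natriuretic peptide, Nppa, did not pass the fold. It was at 220 and 241 CPM (ratio 1.09, 1.05 to 1.14), and at 249 and 214 CPM in spots of 20000 to 30000 UMIs, where its ratio was 0.859. It was patchy, with up to 379 UMIs in a single spot of the TAC-2w-labelled section, and its quadrants overlapped (48.0 to 345 and 174 to 402 CPM). Alpha-myosin heavy chain, Myh6, was at 15191 and 14276 CPM. None of the 22 sarcomere genes was past the fold (median 0.938), against 1.17% of all genes upwards and 7.96% downwards. Of 27 genes of calcium handling and excitation 1 was past it downwards, the calcium channel subunit Cacnb2 at 50.5 and 30.8 CPM (median 1.00). The sarcomere median was 1.10 with all features in the total, so its side of 1 depends on the scaling.

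Side by side with the other sections, Nppb, Myh7 and Ankrd1 were lowest in the section labelled TAC-2w and Nppa in that labelled sham. Nppb was at 638 CPM in the section labelled TAC-4w and 308 CPM in TAC-6w, Myh7 at 12686 and 175 CPM, Ankrd1 at 1944 and 1957 CPM, and Nppa at 3333 and 1044 CPM. Of the 19 compared stress and stretch genes, 13 had their lowest level of the 4 sections in the one labelled TAC-2w and 5 in the one labelled sham, against 50.6% and 13.7% of all genes compared. The other sections carry other batch labels, and every ratio to the sham-labelled section shares that section.

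**Figure D3:**
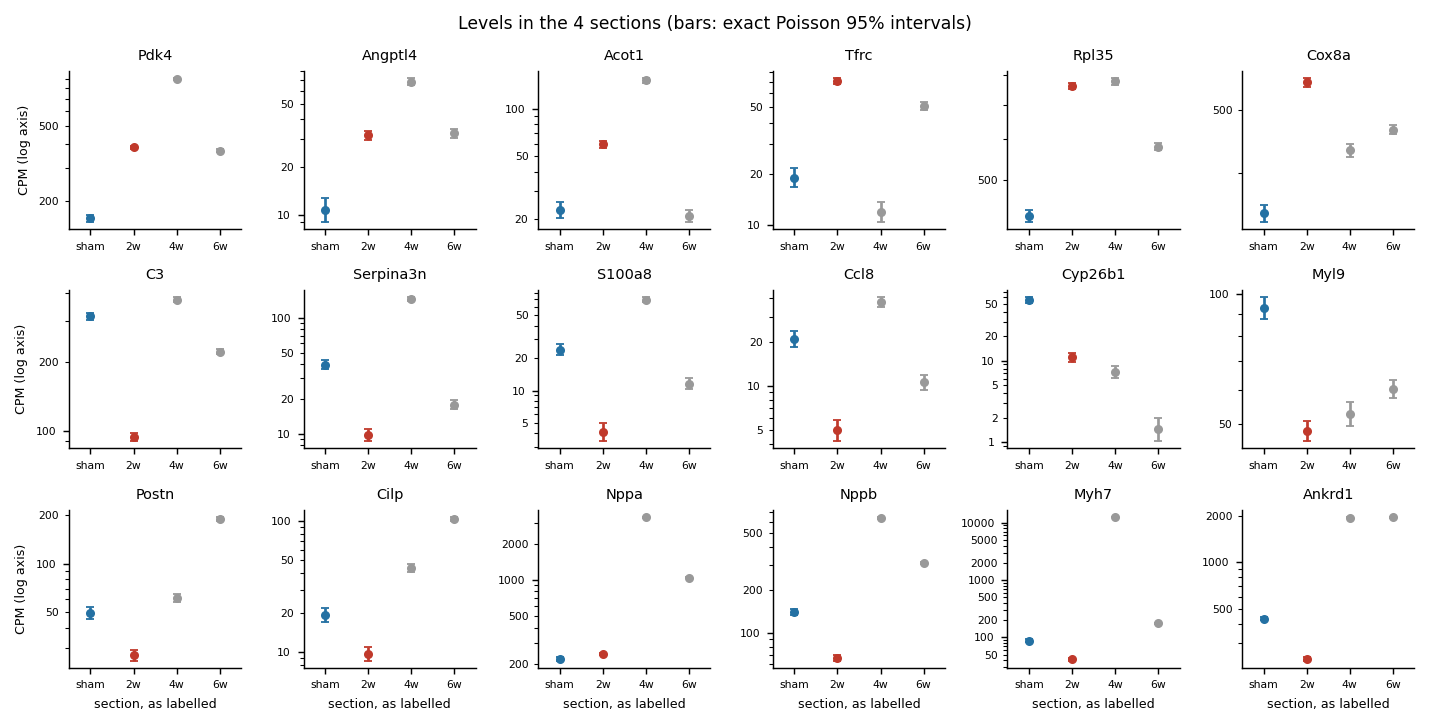
Level of 18 genes (CPM, log axis, each panel on its own scale) in the sections labelled sham (blue), TAC-2w (red), TAC-4w and TAC-6w (grey, marked 2w, 4w and 6w on the x axis), with exact Poisson 95% intervals for counting error. Nppb, Myh7, Ankrd1, C3, Serpina3n, S100a8, Ccl8, Myl9, Postn and Cilp are lowest in the section labelled TAC-2w, while Pdk4, Angptl4, Tfrc, Rpl35 and Cox8a are lower in the section labelled sham than in that labelled TAC-2w.

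Complement and acute-phase genes were among the lower genes. C3, the central complement protein (ENSMUSG00000024164, chromosome 17, 57203967 to 57228136), was at 316 CPM in the sham-labelled and 93.6 CPM in the TAC-2w-labelled section, a ratio of 0.297 (0.282 to 0.312). Its quadrants spanned 241 to 359 CPM and 70.7 to 103 CPM and did not overlap, and it had a UMI in 88.3% and 58.2% of spots of 20000 to 30000 UMIs. C4b was at 45.8 and 13.9 CPM (0.304, 0.267 to 0.347) and the C5a receptor C5ar1 at 15.9 and 6.15 CPM (0.388). Of 15 complement genes compared, 7 were past the fold downwards, against 7.96% of all genes, and none upwards. The median of the list was 0.673, against 0.889 over all genes.

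Serpina3n, an acute-phase protease inhibitor, was at 39.2 and 9.72 CPM (ratio 0.248, 0.213 to 0.289). The iron-siderophore binding protein Lcn2 was at 20.9 and 7.03 CPM (0.336) and the metalloproteinase inhibitor Timp1 at 8.38 and 2.99 CPM (0.356). Of the 16 compared acute-phase genes and metallothioneins, 8 were past the fold downwards, against 7.96% of all genes, and none upwards (median 0.641). Of the 16, 2 were above 1. The whole list of 26 genes summed to 2591 CPM in the sham-labelled and 2747 CPM in the TAC-2w-labelled section, so its summed level was not lower. The 2 neutrophil markers with enough UMIs were S100a8, at 23.9 and 4.11 CPM (0.172, 0.137 to 0.214), and S100a9, at 28.6 and 4.92 CPM (0.172, 0.140 to 0.210). All 4 neutrophil markers together summed to 61.1 and 10.6 CPM. In a section fewer cells of a type and less RNA per cell cannot be told apart, and the part of neutrophils in the other differences was not tested.

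Chemokines and inflammatory cytokines had the lowest median of the 29 lists. Of 13 compared, 11 were past the fold downwards, and the median ratio was 0.524. Ccl8, which attracts monocytes, was at 21.0 and 4.95 CPM (0.236, 0.190 to 0.291). The lymphatic chemokine Ccl21a (ENSMUSG00000094686, 1 of several near-identical gene copies, so uncertain) was at 70.4 and 20.6 CPM (0.292). Cxcl12, a stromal chemokine, was at 178 and 91.7 CPM (0.514) and Cxcl14 at 46.0 and 23.3 CPM (0.506). Interferon-inducible genes had 7 of 35 past the fold downwards (median 0.771), against 7.96% of all genes. At matched depth 4 were past it downwards and 2 upwards (median 0.808), against 10.7% and 1.75% of all genes. Among the 7 was Cxcl9, whose 183 UMIs in the sham-labelled section included up to 67 in a single spot. The Cxcl9 ratio was 0.329 over all spots and 0.646 at matched depth. The guanylate-binding protein Gbp6 was at 59.0 and 35.1 CPM. Of 8 genes of MHC class II and antigen presentation 2 were past the fold, H2-Ab1 at 135 and 85.1 CPM and H2-DMb1 at 7.10 and 4.62 CPM. The macrophage markers summed to 369 and 285 CPM, with none of 5 compared past the fold.

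Of 35 genes of fibrillar matrix and fibrosis 11 were past the fold downwards (median 0.723), against 7.96% of all genes. At matched depth 17 were (median 0.671), against 10.7% of all genes. In 9 of the 35 the quadrants did not overlap, with the TAC-2w-labelled section below, a share near the 24.5% of all genes. The quadrants of Postn and Cilp overlapped. Periostin, Postn, was at 49.3 and 26.8 CPM (0.543, 0.488 to 0.606), the cartilage intermediate layer protein Cilp at 19.2 and 9.79 CPM (0.509) and Ccn2, a TGF-beta target, at 77.7 and 44.1 CPM (0.567). In the section labelled TAC-6w Postn reached 191 CPM and Cilp 104 CPM. Ccn5 was at 10.2 and 2.95 CPM (0.289) and the carboxypeptidase-like Cpxm2 at 54.0 and 13.1 CPM (0.242, 0.212 to 0.275). The fibroblast markers, with Gsn at 2212 and 1631 CPM, summed to 3385 and 2618 CPM, and none of the 5 was past the fold. Against the 7.96% of all genes that were past the fold downwards, TGF-beta ligands, receptors and targets had 2 of 22 past the fold downwards, Tgfbr2 (66.7 and 42.6 CPM) and Ltbp4 (499 and 324 CPM), and basement membrane genes 1 of 14, the perlecan gene Hspg2 (252 and 164 CPM).

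Cyp26b1, which breaks down retinoic acid, had the lowest ratio of the vessel list (ENSMUSG00000063415, chromosome 6, 84571414 to 84593908). It was at 55.5 and 10.96 CPM, a ratio of 0.197 (0.172 to 0.226), in quadrants of 48.0 to 60.3 and 9.55 to 13.2 CPM. Its level was 7.34 CPM in the section labelled TAC-4w and 1.45 CPM in TAC-6w, so the section labelled sham stood above the other three. The leukocyte adhesion molecules Icam1 (23.4 and 10.1 CPM) and Vcam1 (20.4 and 9.76 CPM), the lymphatic receptor Flt4 (16.3 and 7.72 CPM) and the flow-responsive factor Klf2 (151 and 81.8 CPM, 0.542) were also past the fold. In all, 11 of 34 endothelial and VEGF genes were past it downwards, against 7.96% of all genes. The list had a median of 0.698, against 0.889 over all genes. Of the 5 endothelial markers the cadherin Cdh5 (185 and 114 CPM) and Pecam1 (153 and 96.3 CPM) were past the fold downwards.

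Smooth muscle genes were lower in part. Of 12 contractile genes, 6 were past the fold downwards, against 7.96% of all genes, and none upwards. Their median was 0.635 over all spots and 0.543 at matched depth, against 0.889 and 0.8845 over all genes. Myosin heavy chain Myh11 was at 52.0 and 22.1 CPM (0.425, 0.380 to 0.476), transgelin Tagln at 53.9 and 26.9 CPM, tropomyosin Tpm2 at 72.8 and 37.1 CPM (0.509) and the myosin light chain Myl9 at 92.7 and 48.3 CPM (0.521). The quadrants of Myh11 spanned 17.5 to 77.8 CPM in the sham-labelled and 12.9 to 26.9 CPM in the TAC-2w-labelled section, so they overlapped. The smooth muscle cell markers summed to 387 and 235.0 CPM, with 3 of 4 compared past the fold downwards. Tagln had up to 41 UMIs in a single spot of the sham-labelled section.

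The immediate early genes, switched on within minutes of a stimulus, had 10 of 32 past the fold downwards and none upwards (median 0.782). Dusp6, a phosphatase of the ERK pathway, was at 23.9 and 8.34 CPM (0.348), Nfkbia, an inhibitor of NF-kappa-B, at 101 and 53.9 CPM (0.533) and Egr1 at 10.8 and 5.97 CPM (0.554). Of 19 hypoxia targets 5 were past the fold downwards, among them Pfkfb3 (0.517), Adm (0.535), Egln3 (0.541) and Ndrg1 (0.577). Glucocorticoid targets had 6 of 30 past the fold downwards and 2 upwards, against 7.96% and 1.17% of all genes. The latter were Pdk4 and Ucp3 again. At matched depth 6 were past it downwards and 3 upwards, against 10.7% and 1.75% of all genes. Heat shock genes had 2 of 41 past the fold downwards, Hsph1 (0.617) and Hsp90aa1 (0.641), a smaller share than the 7.96% of all genes.

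Circadian clock genes were lower in part. In the clock, CLOCK and BMAL1 bind E-boxes in the promoters of the Per and Cry genes and of output genes, whose products feed back on them. Of 23 compared, 5 were past the fold downwards, against 7.96% of all genes, and none upwards. The median of the list was 0.759, against 0.889 over all genes, and 0.887 with all features in the total. The repressor Ciart was at 17.2 and 6.12 CPM (0.355, 0.288 to 0.436), the output factor Dbp at 133 and 81.6 CPM (0.613), Per1 at 74.2 and 47.3 CPM (0.637), Per2 at 27.7 and 16.5 CPM (0.597) and Per3 at 19.2 and 12.4 CPM (0.646). Arntl, which encodes BMAL1, was at 5.03 and 5.61 CPM (1.12). The labels give no time of day for the collection of hearts.

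Promoters from 250 bases before to 50 after a start (RefSeq, GRCm38.p6) were searched for the E-box CACGTG, which reads the same on both strands. The table held a promoter for 8151 of the 10229 genes. An E-box was in 6 of 18 clock genes with a promoter and in 988 of the 8151 genes (12.1%), and in 7.15% of all 32851 promoters. Of the 4 clock genes past the fold downwards that had a promoter, 2 were among these 6. The stretches of the 5 genes with the lowest ratios among these 6 are given 5′ to 3′ on the strand of the gene, with the E-box in capitals.
Ciart, chr3:95882247-95882364, minus strand: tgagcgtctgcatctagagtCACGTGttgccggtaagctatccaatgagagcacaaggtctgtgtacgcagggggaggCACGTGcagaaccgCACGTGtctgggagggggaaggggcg
Per1, chr11:69098763-69098808, plus strand: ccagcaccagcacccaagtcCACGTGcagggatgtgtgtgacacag
Bhlhe41, chr6:145865548-145865593, minus strand: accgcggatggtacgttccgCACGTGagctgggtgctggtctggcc
Cipc, chr12:86947306-86947342, plus strand: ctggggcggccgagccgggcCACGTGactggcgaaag
Tef, chr15:81802526-81802571, plus strand: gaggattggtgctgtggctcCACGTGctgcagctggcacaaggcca
Ciart, with the lowest ratio of the list, held 3 E-boxes, starting 116, 58 and 44 bases before its start. Bhlhe41, Cipc and Tef had ratios of 0.725, 0.729 and 0.773 and were not past the fold. A match is a stretch of letters and not a measured binding site.

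Antioxidant genes had 7 of 29 past the fold downwards, against 7.96% of all genes, and none upwards. The median of the list was 0.917, near the 0.889 over all genes, and 1.07 with all features in the total. The list was therefore not lower as a whole. Nqo1, a quinone reductase, was at 60.0 and 32.9 CPM (0.548), the glutathione-making Gclc at 13.1 and 7.76 CPM (0.593), thioredoxin reductase Txnrd1 at 46.3 and 28.8 CPM (0.623) and Gpx3, a secreted glutathione peroxidase, at 310 and 195 CPM (0.628). The core of the antioxidant response element that NRF2 binds, TGACNNNGC on either strand, was in 10 of 24 genes of the list with a promoter and in 1415 of 8151 genes (17.4%). It is shown in capitals for 2 of the lower genes, read on the opposite strand in both.
Txnrd1, chr10:82859094-82859142, plus strand: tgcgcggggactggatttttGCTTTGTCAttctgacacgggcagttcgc
G6pdx, chrX:74428909-74428957, minus strand: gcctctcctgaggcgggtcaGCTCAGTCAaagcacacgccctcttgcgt
A CArG box, the site of serum response factor, was in the promoter of 1 of 9 smooth muscle genes, Myl9, and in 138 of 8151 genes (1.69%). It starts 161 bases before the start of Myl9.
Myl9, chr2:156775283-156775332, plus strand: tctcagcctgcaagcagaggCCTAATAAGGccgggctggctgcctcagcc
A direct repeat of AGGNCA with 1 base between, a form bound by the fatty acid receptor PPAR-alpha, was in the promoter of none of 41 fatty acid genes and 17 of 8151 genes (0.209%), on either strand. A kappa B site was in the promoter of 3 of 10 chemokine, 2 of 13 acute-phase and 1 of 10 complement genes, and of 1007 of 8151 genes.

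The aminoacyl-tRNA synthetases had 1 of 40 past the fold (median 0.896), and this was Lars2, the mitochondrial leucyl-tRNA synthetase, a gene the study follows. It was at 845 CPM in the sham-labelled and 511 CPM in the TAC-2w-labelled section, a ratio of 0.605 (0.590 to 0.621), but 608 and 464 CPM in spots of 20000 to 30000 UMIs, a ratio of 0.763 (0.733 to 0.794) that is not past the fold. Malat1, a nuclear RNA, was at 1140 and 730 CPM (0.641) over all spots and a ratio of 0.787 at matched depth. Within bins of spot depth from 5000 UMIs upwards, the ratio ran from 0.709 to 0.981 for Lars2 and from 0.399 to 0.926 for Malat1. Both had their highest quadrant in the upper left of the sham-labelled section, the shallow one (median 5607 UMIs per spot). It held 1449 CPM of Lars2 and 1763 CPM of Malat1. The other sham-labelled quadrants spanned 689 to 839 CPM for Lars2 and 983 to 1160 CPM for Malat1. In the TAC-2w-labelled section the quadrants reached at most 551 and 755 CPM. Against 7.96% of all genes past the fold downwards, leucine transport and branched-chain catabolism had 2 of 22, Lars2 and Slc3a2 (0.629). The median of this list was 0.989, against 0.889 over all genes. The ATF4 list had 1 of 22, also Slc3a2, and a median of 0.888. These shares are near that of all genes.

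**Figure D4:**
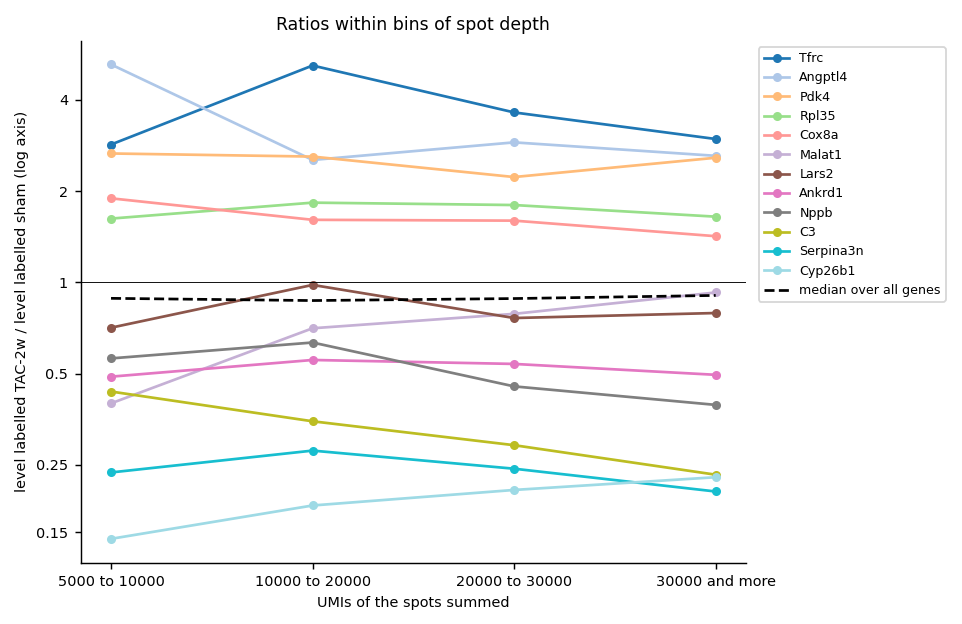
Ratio of the TAC-2w-labelled to the sham-labelled level (log axis) of 12 genes in 4 bins of UMIs per spot, with the median over all genes dashed (0.871 to 0.906 over the bins). Pdk4 and Rpl35 keep much the same ratio in every bin. From the shallowest bin shown to the deepest, Malat1 rises from 0.399 to 0.926 and C3 falls from 0.437 to 0.232.

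The other lists stand against 7.96% of all genes past the fold downwards, and 10.7% at matched depth. Ubiquitin, autophagy and muscle turnover had 1 of 25 past the fold downwards, the Z-disc protein Myot at 93.5 and 41.8 CPM (0.447). The cell cycle list had 4 of 14, and 2 at matched depth. It was led by the microtubule regulator Stmn1 at 51.4 and 19.2 CPM (0.373) and the cyclin Ccnd1 at 41.9 and 21.2 CPM (0.507). Nuclear-retained and long non-coding RNAs had 4 of 6 past the fold over all spots but 1 at matched depth, which was Neat1 (591 and 363 CPM, 0.594 at matched depth). Other abundant lower genes were the prostaglandin D synthase Ptgds, at 1291 and 498 CPM (0.386, 0.377 to 0.395), and Depp1, an autophagy regulator, at 166 and 73.8 CPM (0.446).

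**Figure D5:**
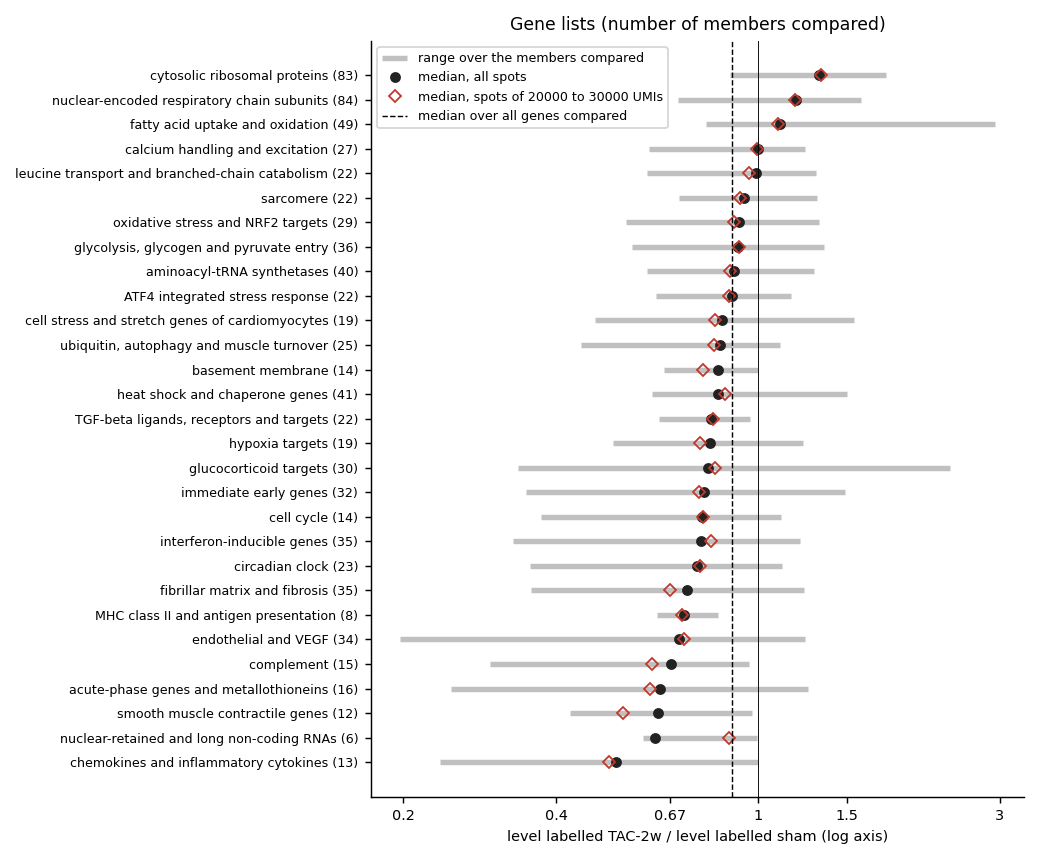
Ratio of the TAC-2w-labelled to the sham-labelled level (log axis) for 29 gene lists, with the number of members compared in brackets. Black circles are medians over all spots, red diamonds medians in spots of 20000 to 30000 UMIs and grey bars the range over the members, and ribosomal proteins (1.32) and chemokines (0.524) lie at the ends, on either side of the median of all genes (dashed, 0.889).

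Antibody genes differed in how their UMIs were spread. Ighm, the heavy chain of IgM, was at 13.4 and 10.1 CPM, in 136 spots of the sham-labelled and 236 spots of the TAC-2w-labelled section with at most 5 UMIs in any. Igha, the heavy chain of IgA, had 16 UMIs in the sham-labelled and 181 in the TAC-2w-labelled section, of which 100 lay in 1 of its 41 spots with any. Ighg1, the heavy chain of an IgG, had 143 UMIs in 59 spots of the sham-labelled section and none in the TAC-2w-labelled section, nor in the sections labelled TAC-4w and TAC-6w. Of these UMIs 41 lay in a single spot, and its quadrants there spanned 1.61 to 34.6 CPM. With a floor of 3 counts over the TAC-2w-labelled section in place of 0 the fold was 104.5, while the exact interval of the ratio reached up to 0.0119, which is a smaller fold. Igkc, a light chain, was at 16.2 and 9.47 CPM. Heavy chain genes are near-identical in part, so reads can be shared among them.

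The single-cell libraries labelled sham and TAC-2w gave another readout of the same labels. Their batch labels differ, and 26 cell barcodes occur in both. The sample labels describe nuclei and the methods cells, and whether the labels of these libraries are right was not tested. After the study's filters on genes, UMIs and mitochondrial share, without its doublet removal, 8228 and 6501 cells were summed, with 71187282 and 65251016 counted UMIs. Of 9854 genes compared in the sections that had 100 UMIs in either library, 115 (1.17%) were at least 1.5 times higher and 41 (0.416%) correspondingly lower in the library labelled TAC-2w. Of the 120 genes higher in the section 78 could be compared, with 6 higher and 1 lower in the library, and of the 814 lower genes 787, with 25 higher and 10 lower. C3 was at 669 and 567 CPM in the libraries labelled sham and TAC-2w, S100a8 at 372 and 364 CPM, Serpina3n at 96.0 and 83.5 CPM and Pdk4 at 23.0 and 27.1 CPM. Of the named genes lower in the section labelled TAC-2w, 76 had 100 UMIs in either library, and 10 of them were past the fold upwards and 2 downwards there. Those that lay the opposite way included Ccl21a (library ratio 28.9), Myh11 (2.31), Cxcl9 (2.10), Ccn5 (1.76), Dbp (1.74), Cpxm2 (1.69) and Tpm2 (1.66). Of the 20 such named genes that were higher in the section, 2 were past the fold upwards in the library and 1 downwards. The latter was Igha, with 1249 UMIs in the library labelled sham and 1 in that labelled TAC-2w. Angptl4, at 26.3 and 41.5 CPM, was higher by 1.58 times (1.49 to 1.67), while Cyp26b1 was at 1.48 and 1.12 CPM. Cardiomyocyte genes were low in both libraries (Myh6 40.2 and 70.5 CPM), so the libraries say little of them.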

How the data were processed

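Space Ranger (sections) and Cell Ranger (libraries) were run by the authors against mm10, and the deposited values are raw UMI counts without normalization. The file headers name versions 1.2.0 and 6.0.0, the submitters' notes 1.3.1 and 7.0.0. Every spot over tissue was kept, counts were summed per section and divided by the total of counted features, and ratios were taken without a pseudocount. Levels have exact Poisson and ratios exact conditional binomial 95% intervals, which cover counting error only and not differences between animals, computed with scipy 1.17.1 under Python 3.11.15. Depth was 25996378 UMIs in the section labelled sham and 48754396 in that labelled TAC-2w. The library sums hold every barcode that passed the limits on detected genes (200 to 6000), on UMIs (500 to 30000) and on mitochondrial share (under 15%), and doublets were not removed.

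Named genes were the 12 highest and 12 lowest ratios that were also past the fold, with at least 20 UMIs, in spots of matched depth, the 8 highest and 8 lowest among genes of at least 100 CPM whose matched-depth interval lies on the same side of 1, up to 4 members past the fold per list (or the 2 most abundant), and genes the study names. Features with only a clone or model number were counted but not named. One gene that meets the rule is not reported here. Other genes in the text were chosen after their values were seen. The members and the 29 lists and 18 marker lists were chosen with earlier results of these data known. Gene positions and promoters are from RefSeq GRCm38.p6. The interval was tried on counts simulated for the 10229 genes at the depths of both sections. The true ratio lay inside 95.6% of the simulated intervals. Of 200 genes changed 2-fold, 98.5% were past the fold, against 0.160% of the unchanged genes. The simulation does not cover differences between sections or animals, the choice of scaling or UMIs gathered in single spots. The 0.160% is therefore not an error rate for the genes called here. Alternatives were spots of 20000 to 30000 UMIs, all features in the total, haemoglobin left out, equal weight per spot, thinning to 3000 UMIs, interior spots, division by the median ratio and other low-count filters.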

Additional observations from a re-analysis of the deposited data

How the results depend on the processing

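No paired analysis was possible because each condition had 1 section, and no replicate could be left out. The main counts were 120 genes higher and 814 lower in the section labelled TAC-2w. Scaling moved them in opposite directions, to 467 and 218 with all features in the total and to 333 and 301 after division by the median ratio, so that the share of higher genes among those past the fold was 12.8%, 68.2% and 52.5%. The low-count filter moved both counts the same way, to 69 and 375 genes at 300 UMIs and, in the largest move of these alternatives, to 786 and 3296 with 1 UMI in both sections. Thinning to 3000 UMIs, which left 2047 spots of the TAC-2w-labelled and 1261 of the sham-labelled section, gave 256 higher genes. The remaining counts stayed within 1.5 times, between 129 and 179 higher and between 707 and 1209 lower. Of the 29 lists, 28 stayed on the same side of the median of all genes at matched depth (the exception was the aminoacyl-tRNA synthetases) and 27 with equal weight per spot. Under these alternatives no gene named by the rule and past the fold crossed 1, while over all genes past the fold 5 lower genes and 1 higher gene did when thinned. One section per condition, the doubt over the labels and the difference in depth limit every comparison.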

Other observations

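Genes outside the naming rule also differed, and the following were chosen after their values were seen. Irx2, a relative of Irx5, had a ratio of 2.33 over all spots and 2.34 at matched depth, and the adrenergic receptor Adra1b 2.13 and 1.99. The adhesion molecule Ncam1 was at 2.04 and 2.22. On the other side, the lubricating proteoglycan Prg4 (0.369 and 0.281), the matrix protease Mmp3 (0.320 and 0.287) and the endothelial gene Apold1 (0.380 and 0.386) were lower in the section labelled TAC-2w. The chemokine Ccl1 had 118 UMIs in 26 spots of the sham-labelled section, 68 of them in a single spot, and none in the TAC-2w-labelled section.

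Markers of cells that a heart section can also hold were few. The 5 mesothelial markers summed to 10.8 CPM in the sham-labelled and 4.77 CPM in the TAC-2w-labelled section, the 5 white fat markers to 0.160 and 0.0364 CPM, the 4 T cell markers to 3.99 and 1.89 CPM, the 4 Schwann cell markers to 9.10 and 6.01 CPM, the 4 skeletal muscle markers to 4.55 and 5.90 CPM and the 4 conduction system markers to 8.30 and 11.7 CPM. Pericyte markers summed to 997 and 763 CPM with none of 4 past the fold, and B cell markers to 32.3 and 21.3 CPM. Platelet markers summed to 63.0 and 65.0 CPM, of which Pf4 alone took 58.57 and 58.65 CPM. The brown fat markers were at 35.4 and 45.1 CPM, nearly all of it Cidea.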
